A study of Mus musculus with 4 samples.

Results

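The genes described here are 10 markers of crypt base columnar stem cells, Lgr5, Tnfrsf19, Olfm4, Smoc2, Rgmb, Ascl2, Cdca7, Msi1, Cdk6 and Slc12a2. The members were all probe sets that the platform's annotation assigns to exactly one of these symbols, which gave 28 of the 45101 probe sets on the array and 10 of its 18193 genes. The rule uses gene symbols alone, and the genes themselves were chosen with earlier results of these data known. Of the 28 probe sets, 27 passed a level filter (an intensity of at least 20.9, the median of all values, on at least 1 array) and 1, Tnfrsf19 1415921_a_at, did not. Probe sets of a gene can read overlapping transcripts and are not taken as independent, so counts are given by probe set and by gene.

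Crypt base columnar cells are slender dividing cells wedged between Paneth cells at the bottom of the intestinal crypt, and their progeny supply the absorptive and secretory lineages of the epithelium. They depend on Wnt signals, which stabilise beta-catenin and drive transcription through T cell factor proteins, and on R-spondins, which bind Lgr5 and its relatives and keep Wnt receptors at the surface. Apc holds together the complex that destroys beta-catenin, so that its loss activates the same pathway without a ligand.

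The arrays measured mouse intestinal organoids carrying Apc fl/fl, an allele whose recombination was induced with 4-hydroxytamoxifen (4OHT) for 24 h. There were 4 groups of 1 array each: untreated organoids collected at day 4, 4OHT-treated organoids at day 4, untreated organoids at day 6 and 4OHT-treated organoids at day 6. All 4 groups carried the floxed allele. Per the labels, organoids given 4OHT were Apc-deficient; they name no Cre driver, no age or sex of the animals and no separate cultures. A 4OHT control lacking the floxed allele is not among the groups. With 1 array a group no difference has a replicate check, and precision is limited by that number.

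Of 8 epithelial markers, 7 had intensities of at least 448 on every array, and Cdx1 gave 36.5 to 148. The highest intensity among 8 fibroblast and muscle, 3 endothelial and 4 immune markers was 59.4. Where the Apc probe sets lie relative to the floxed exons is not known here, so they check neither labels nor recombination. Of 4 Apc probe sets, 1435543_at was 0.77 and 0.68 higher with 4OHT on the log2(intensity + 16) scale at days 4 and 6, and 1420956_at differed by -0.40 and 0.34. Median intensities were 22.0 and 21.9 at day 4 and 19.3 and 19.5 at day 6, untreated and 4OHT in turn. The spiked hybridization controls (mean of 18 probe sets, log2 intensity) showed 4OHT differences of -0.35 (day 4) and 0.83 (day 6). From day 4 to day 6 they fell by 2.26 in untreated and by 1.07 in 4OHT organoids, and the scaling between the days is not known. The signal of Actb toward the 5' end was weaker with 4OHT, by 0.94 (day 4) and 0.62 (day 6) relative to the 3' end.

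The first comparison asked how the stem cell genes differed between organoids given 4OHT to recombine Apc and untreated ones. Folds are given as ratios of intensity + 16 unless stated otherwise, which shrinks the folds of dim probe sets. Most stem cell probe sets were somewhat brighter with 4OHT as deposited, nearly all by less than 2-fold on that scale, and none passed the test. At day 4, 23 of the 27 tested probe sets were higher by any amount, against 55.5% of all 23044 probe sets tested. At day 6, 26 of 27 were higher, against 46.7%. On both days 22 of 27 were higher, covering all 10 genes, against 29.5% of all probe sets, and none was lower on both days, against 27.1%. On intensity + 16 none was at least 2-fold higher on both days, against 0.152%, or 2-fold lower on both, against 0.551%. In intensity alone Tnfrsf19 1425212_a_at (2.46-fold and 2.50-fold) and Msi1 1452287_at (2.04-fold and 2.29-fold) were over 2-fold higher on both days. The share of all probe sets in intensity alone was not computed. In whole organoids a larger share of a cell type and more RNA per cell cannot be told apart. For 7 of the 10 genes every tested probe set was higher on both days, the exceptions being Rgmb, Ascl2 and Cdk6. These counts by gene depend on how many probe sets a gene has, and their share over all genes was not computed. The median difference was 0.29 at day 4 and 0.61 at day 6 on the log2(intensity + 16) scale, beside 0.05 and -0.02 over all probe sets tested.

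Limma, with 4OHT and day as additive terms over the 4 arrays, called none of the 27 probe sets at an adjusted p under 0.05 in either direction, while over all probe sets it called 0.334% upward and 0.981% downward. At an unadjusted p under 0.05 it passed 12 of the 27, all higher with 4OHT, against 11.9% of all probe sets in either direction. The lowest adjusted p among the members was 0.063 (Msi1 1452287_at). With only the brightest probe set of each gene tested, 2 of the 10 genes passed, Msi1 (limma adjusted p = 0.020) and Smoc2 (adjusted p = 0.029). That fit called 140 of all 13198 probe sets upward. The error of limma's test comes from how far the 4OHT effects of day 4 and day 6 lie apart, not from replicate cultures. A probe set's own gap gives 1 residual degree of freedom, and 10.5 prior degrees of freedom come from all tested probe sets. At 2-fold, no probe set was higher at day 4, against 0.903% of all, and 3 were higher at day 6, against 0.668% of all. One of these 3, Tnfrsf19 1448147_at, passed the level filter only through its 4OHT arrays and so had to be higher there. None was at least 2-fold lower at day 4 or day 6, against 0.907% and 2.50%.

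**Figure D1:**
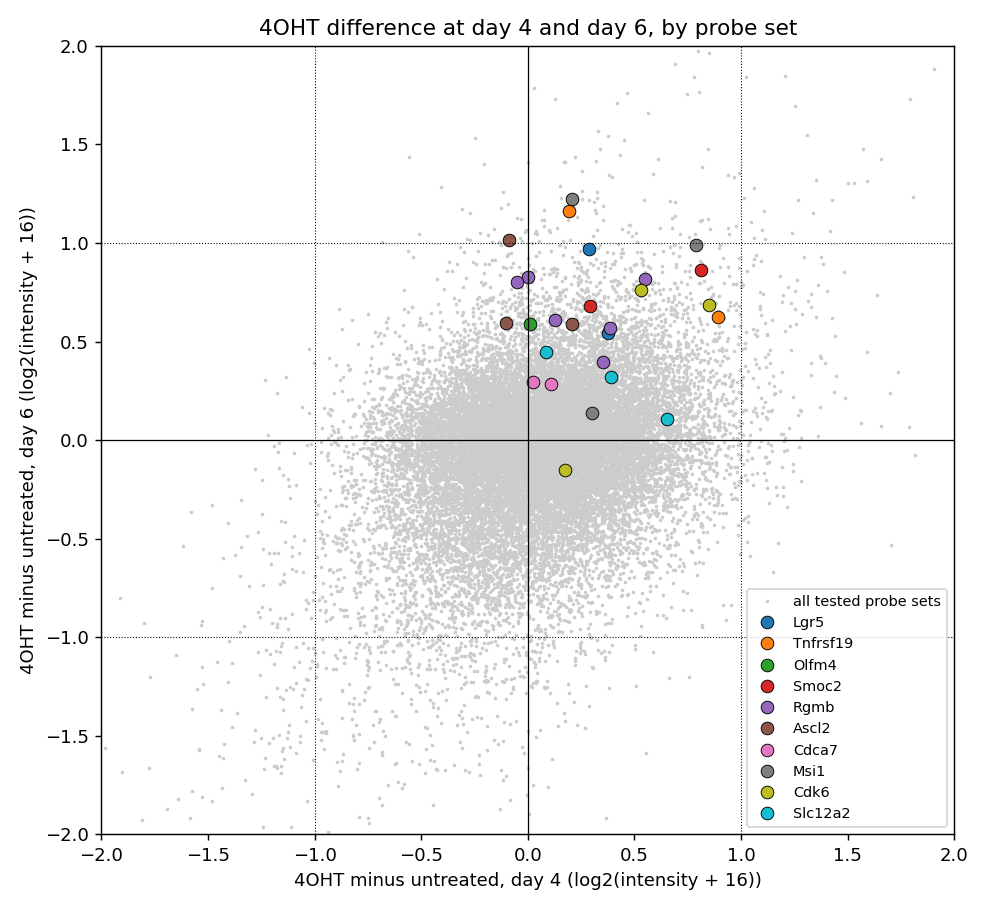
Difference between 4OHT and untreated organoids at day 4 (horizontal axis) and day 6 (vertical axis) on the log2(intensity + 16) scale, 1 point a probe set. Coloured points are the 27 tested stem cell probe sets, grey points all 23044 tested, of which 79 lie outside the axes, and dotted lines mark 2-fold. As deposited, 22 coloured points lie above 0 on both axes. Under hybridization control scaling 10 lie above 0 at day 6, against 2.55% of all tested.

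The direction at day 6 depends on the scale. When each array was scaled to its hybridization controls, an alternative chosen after seeing the data, the median of all tested probe sets moved to 0.26 at day 4 and -0.69 at day 6, and that of the stem cell probe sets to 0.46 and -0.09. With that scaling 10 of 27 were above 0 at day 6, against 2.55% of all tested. Relative to the median of all, the stem cell probe sets then lay 0.21 higher at day 4 and 0.60 higher at day 6, beside 0.24 and 0.63 as deposited. At day 6, 25 of 27 lay above the median of all tested under that scaling and 26 of 27 as deposited.

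Lgr5, the R-spondin receptor that defines these cells, was read by 2 probe sets. Probe set 1450988_at had intensities of 254 in untreated and 313 in 4OHT organoids at day 4, and of 597 and 1186 at day 6. Probe set 1444519_at gave 39.5 and 55.9 at day 4, and 36.9 and 61.2 at day 6. On the latter, both 4OHT arrays lay above both untreated arrays, while on the former the untreated array of day 6 lay above the 4OHT array of day 4. The 4OHT effect over both days was 0.63 ± 0.22 (SE, limma adjusted p = 0.27) for 1450988_at and 0.46 ± 0.20 (adjusted p = 0.40) for 1444519_at. On intensity + 16 the difference of the brighter probe set was 1.22-fold at day 4 and 1.96-fold at day 6.

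Tnfrsf19, a tumour necrosis factor receptor family member (also called Troy) that marks the same cells, was dim throughout. Probe set 1425212_a_at had intensities of 22.7 and 55.7 at day 4 and of 9.06 and 22.7 at day 6, untreated and 4OHT in turn. Probe set 1448147_at gave 18.9 and 23.8 at day 4, and 9.99 and 42.1 at day 6. The 4OHT array was the higher of its day for both, and for 1448147_at both 4OHT arrays lay above both untreated ones. Its untreated arrays were under the level filter, so it entered the test only through 4OHT arrays. It was 1 of 7 stem cell probe sets with that order of arrays, against 8.50% of all tested, and no stem cell probe set had both 4OHT arrays below both untreated ones, against 5.32%. Their 4OHT effects were 0.76 ± 0.20 (limma adjusted p = 0.12) and 0.68 ± 0.25 (adjusted p = 0.28). The third probe set, 1415921_a_at, gave 20.6, 18.9, 14.5 and 11.6 in the same order and lay under the level filter on every array. Its differences with 4OHT were -0.07 and -0.14, and it was not tested.

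Promoter windows from RefSeq (GRCm38.p6, 250 bases before to 50 after a start site) matched 6 of the 10 genes, with 9 windows. They were searched on both strands for the T cell factor core as CTTTGAT or CTTTGAA, since most of these genes were higher with 4OHT, and for the E-box CAGCTG. The core was in 1 of the 9 windows, a start site of Tnfrsf19, against 8.65% of all 32851 windows, and the E-box was in the same window only, against 16.3%. In that window the core lies on the other strand from base 49 and the E-box from base 241, counted from the window's 5' end, and the 2 do not overlap. It is shown with the other Tnfrsf19 start and with those of Ascl2, whose probe set 1432018_at differed by 1.01 at day 6, and Olfm4, neither of which holds these letters. A match is a description of the sequence and not a binding site. Capitals mark the matches.
Tnfrsf19, chr14:61037938-61038237, minus strand: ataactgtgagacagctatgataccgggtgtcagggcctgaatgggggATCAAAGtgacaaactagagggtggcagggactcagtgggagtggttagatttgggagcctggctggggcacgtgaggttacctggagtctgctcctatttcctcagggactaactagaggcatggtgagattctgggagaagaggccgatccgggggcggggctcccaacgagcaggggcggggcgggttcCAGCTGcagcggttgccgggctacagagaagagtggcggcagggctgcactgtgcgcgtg
Tnfrsf19, chr14:61046806-61047105, minus strand: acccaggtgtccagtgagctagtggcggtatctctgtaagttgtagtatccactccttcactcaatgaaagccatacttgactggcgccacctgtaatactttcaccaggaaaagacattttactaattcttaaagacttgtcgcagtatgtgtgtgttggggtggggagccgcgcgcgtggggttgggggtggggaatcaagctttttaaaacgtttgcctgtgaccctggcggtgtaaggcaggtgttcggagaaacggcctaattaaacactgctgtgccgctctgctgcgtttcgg
Ascl2, chr7:142969215-142969514, minus strand: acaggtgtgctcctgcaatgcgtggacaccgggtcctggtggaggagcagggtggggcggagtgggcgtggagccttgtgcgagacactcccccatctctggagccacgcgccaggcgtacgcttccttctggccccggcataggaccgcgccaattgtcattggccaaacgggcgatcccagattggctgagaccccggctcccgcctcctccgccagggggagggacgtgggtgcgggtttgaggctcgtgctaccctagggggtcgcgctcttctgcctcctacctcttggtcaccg
Olfm4, chr14:80000052-80000351, plus strand: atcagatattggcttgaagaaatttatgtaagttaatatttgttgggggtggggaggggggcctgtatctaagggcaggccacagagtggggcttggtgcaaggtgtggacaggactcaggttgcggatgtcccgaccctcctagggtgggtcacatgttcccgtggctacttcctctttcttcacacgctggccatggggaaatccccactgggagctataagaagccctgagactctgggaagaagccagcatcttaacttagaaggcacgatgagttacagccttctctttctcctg

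Olfm4, a secreted olfactomedin-domain glycoprotein abundant in crypt base columnar cells, was read by 1 probe set. Its intensities were 833 in untreated and 839 in 4OHT organoids at day 4, and 4167 and 6266 at day 6. The arrays of day 4 were nearly equal, and both lay far below those of day 6. Its 4OHT differences were 0.01 (day 4) and 0.59 (day 6), with an effect over both days of 0.30 ± 0.22 (limma adjusted p = 0.67).

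Smoc2, a secreted calcium-binding matrix protein, had one of the larger 4OHT effects. Probe set 1415935_at had intensities of 131 and 242 at day 4 and of 692 and 1270.2 at day 6, untreated and 4OHT in turn. Probe set 1431362_a_at gave 587 and 724 at day 4, and 200.2 and 330.5 at day 6. Both probe sets were higher with 4OHT on both days but ran in opposite directions between the days. The effects over both days were 0.84 ± 0.20 (limma adjusted p = 0.078) and 0.49 ± 0.21 (adjusted p = 0.38), the former above 99.3% of all tested probe sets.

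Rgmb, a membrane-anchored co-receptor for bone morphogenetic proteins, was read by 6 probe sets, more than any other member. Probe set 1442811_at gave 19.4 and 19.4 at day 4, and 278 and 506 at day 6. Probe set 1428429_at gave 45.0 and 50.7, then 257 and 400.3, and 1433586_at gave 20.9 and 38.1, then 67.0 and 130.4. At day 6 the 4OHT array was higher for all 6 probe sets, by 0.40 to 0.83, whereas at day 4 the differences ran from -0.05 to 0.55. The largest effect over both days was 0.69 ± 0.20 (1433586_at, limma adjusted p = 0.17), and the other 5 were 0.37 to 0.48. The remaining probe sets were 1459366_at (27.1 and 40.3, then 83.6 and 131.7), 1433587_at (20.3 and 19.1, then 36.4 and 75.4) and 1428430_at (21.0 and 31.2, then 16.6 and 27.0), of which the last had both 4OHT arrays above both untreated ones.

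Ascl2, a basic helix-loop-helix transcription factor needed to maintain these stem cells in mice, differed with 4OHT at day 6 more than at day 4. Probe set 1460514_s_at had intensities of 112 and 132 at day 4 and of 139 and 218 at day 6, and 1432018_at gave 32.5 and 29.5, then 69.2 and 156. Probe set 1422396_s_at gave 8.54 and 6.84 at day 4, under the level filter, and 32.9 and 57.8 at day 6. All 3 were higher with 4OHT at day 6, by 0.59, 1.01 and 0.60, and only the first was higher at day 4. The effects over both days were 0.40 ± 0.21, 0.46 ± 0.26 and 0.25 ± 0.23, with limma adjusted p of 0.498 to 0.753. Probe sets of the _s_at kind can bind more than 1 transcript.

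Cdca7, a nuclear protein induced by Myc in human cells, had the smallest effects with 4OHT of any gene by its brightest probe set. Probe set 1428069_at gave intensities of 125 and 128 at day 4 and of 585 and 721 at day 6. Probe set 1445681_at gave 12.7 and 14.9, then 27.5 and 37.1. Their effects were 0.16 ± 0.20 and 0.20 ± 0.20 (limma adjusted p = 0.84 and 0.79), within 1 SE of 0 for both.

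Msi1, an RNA-binding protein that regulates translation in stem and progenitor cells, had the largest effect of the list. Probe set 1452287_at had intensities of 38.1 in untreated and 77.6 in 4OHT organoids at day 4, and of 51.9 and 119 at day 6. Both 4OHT arrays lay above both untreated arrays. The difference was 1.73-fold and 1.99-fold on intensity + 16, and 2.04-fold and 2.29-fold in intensity alone. The effect over both days was 0.89 ± 0.20 (limma adjusted p = 0.063), above 99.5% of all tested probe sets. Probe set 1444306_at gave 12.9 and 17.4, then 37.8 and 109, with an effect of 0.71 ± 0.25 (adjusted p = 0.26). The third, 1421409_at, gave 38.9 and 51.6, then 18.7 and 22.1, and had the smaller effect of 0.22 ± 0.20 (adjusted p = 0.76).

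Cdk6, a cyclin D-dependent kinase of the G1 phase, was higher with 4OHT on its 2 bright probe sets. Probe set 1455287_at had intensities of 294 and 432 at day 4 and of 381 and 657 at day 6, and 1435338_at gave 204 and 380.1, then 365 and 596. For both, the 4OHT arrays of both days lay above the untreated arrays of both days. The effects were 0.64 ± 0.20 (limma adjusted p = 0.197) and 0.77 ± 0.20 (adjusted p = 0.11). The dim probe set 1460291_at gave 19.8 and 24.4, then 28.3 and 23.9, differing by 0.17 and -0.15.

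Slc12a2, the sodium, potassium and chloride cotransporter through which crypt cells load chloride, was bright on all 3 probe sets. Probe set 1417622_at had intensities of 291 and 387 at day 4 and of 2103 and 2632 at day 6. Probe set 1448780_at gave 142 and 232, then 909 and 979.5, and 1417623_at gave 878 and 932, then 693 and 952. All 3 were higher with 4OHT on both days, by 0.08 to 0.65, and their effects of 0.36 ± 0.20, 0.38 ± 0.22 and 0.27 ± 0.21 had limma adjusted p of 0.54 to 0.70. Only 1417623_at had both 4OHT arrays above both untreated ones.

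**Figure D2:**
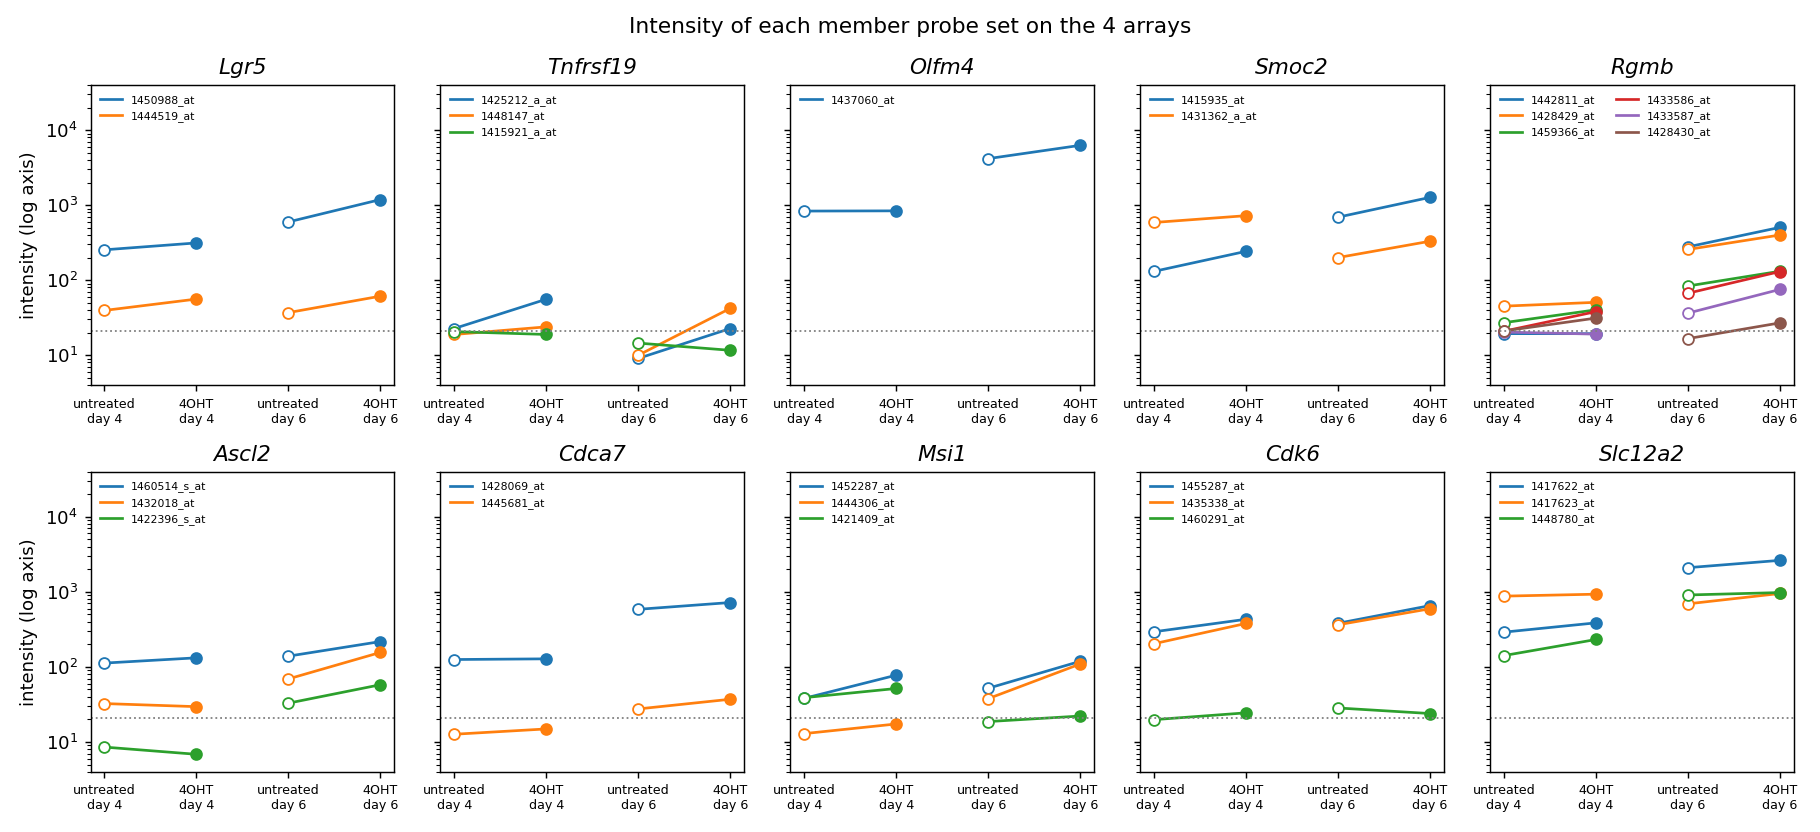
Intensity of each of the 28 stem cell probe sets (log axis) on the 4 arrays, 1 panel a gene, with open circles for untreated and filled circles for 4OHT organoids of the same day joined by a line. The dotted line is the level filter of 20.9. Most lines slope upward, and Olfm4 differs far more between the days than with 4OHT.

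**Figure D3:**
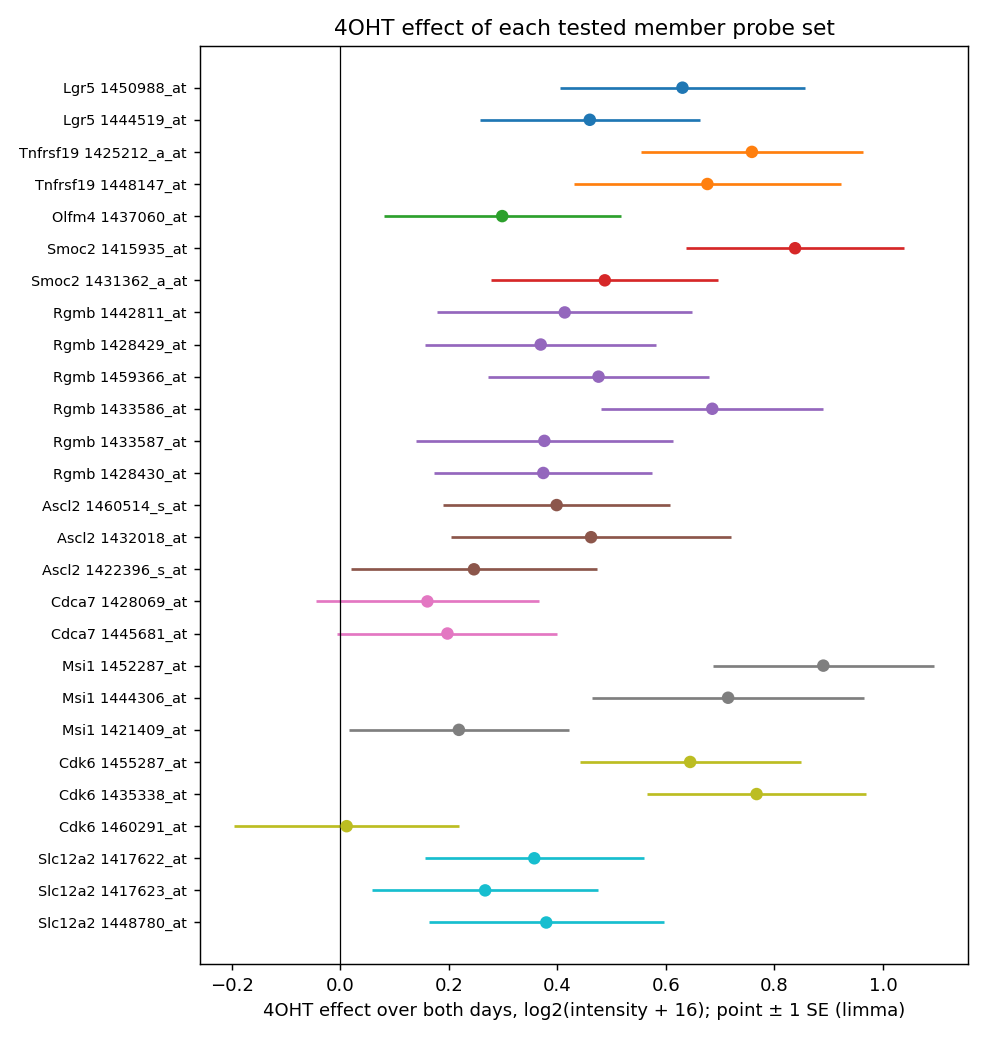
The 4OHT effect over both days (horizontal axis, log2(intensity + 16) scale) of each of the 27 tested stem cell probe sets, as limma's estimate ± 1 SE. As deposited, all 27 estimates lie above 0, from 0.01 (Cdk6 1460291_at, above 50.6% of all tested probe sets) to 0.89 (Msi1 1452287_at). The median over all tested was 0.01. Under hybridization control scaling 23 of 27 lie above 0, and the median over all was -0.22.

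The 4OHT difference was larger at day 6 than at day 4 for 21 of the 27 probe sets, against 41.4% of all tested, with a median of 0.27 for the change beside -0.09 over all. The largest change was in Ascl2 1432018_at (-0.09 at day 4, 1.01 at day 6), followed by Msi1 1444306_at (0.21 and 1.22) and Tnfrsf19 1448147_at (0.19 and 1.16). These 3 were the probe sets at least 2-fold higher at day 6. Slc12a2 1448780_at ran the other way, with 0.65 at day 4 and 0.11 at day 6. With 1 array in each group the difference between the days has no residual and could not be tested. On the same arrays the hybridization controls lay at -0.35 and 0.83 with 4OHT. Scaled to them, the order of the days turned: 4 of 27 probe sets had the larger 4OHT difference at day 6, against 1.31% of all, and the median change was -0.61, beside -0.99 over all.

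The second comparison set day 6 against day 4 in each arm. Most stem cell genes were brighter at day 6, with medians of 0.79 in untreated and 1.38 in 4OHT organoids, beside 0.21 and 0.07 over all probe sets tested. Higher by any amount were 20 of 27 in untreated organoids, against 57.7% of all, and 22 of 27 in 4OHT organoids, against 53.4%. In untreated organoids 10 of 27 probe sets were at least 2-fold higher, against 23.7% of all, and 1 was lower, against 4.43%. In 4OHT organoids 14 of 27 were at least 2-fold higher, against 16.2%, and 1 was lower, against 2.47%. Both arrays of day 6 lay above both of day 4 for 16 probe sets of 8 genes, against 44.2% of all, and below them for 2, against 33.3%. Of these 16, 5 were under the level filter on both day 4 arrays and entered only through day 6, where they had to be higher (Rgmb 1442811_at and 1433587_at, Ascl2 1422396_s_at, Cdca7 1445681_at and Msi1 1444306_at). All 5 are also among the 20 and the 22 probe sets higher by any amount, so those counts are raised by the filter. They include 1 of the 10 probe sets at least 2-fold higher in untreated and 4 of the 14 in 4OHT organoids. Olfm4 was 4.93-fold and 7.35-fold higher at day 6, in untreated and 4OHT organoids in turn, and Cdca7 1428069_at was 4.25-fold and 5.12-fold higher. Since the hybridization controls fell by 2.26 and 1.07 between the same arrays, these differences are given as values without a test. A rise was not particular to stem cell genes: medians were 1.22 (untreated) and 0.70 (4OHT) for epithelial and 1.25 and 1.40 for enterocyte markers. Those of Paneth cell, tuft cell, fibroblast and muscle, endothelial and immune markers were below 0 in both arms. The range of log2 intensity from the 5th to the 95th percentile widened, from 5.77 to 6.89 in untreated and from 5.90 to 6.73 in 4OHT organoids. Its part was not tested.

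As deposited, several genes did not give one direction over time. Smoc2 1415935_at was 4.81-fold higher at day 6 in untreated organoids, while Smoc2 1431362_a_at was 2.79-fold lower. In 4OHT organoids the same probe sets were 4.98-fold higher and 2.13-fold lower. Slc12a2 1417622_at and 1448780_at were 6.91-fold and 5.87-fold higher at day 6 in untreated organoids, whereas 1417623_at differed by -0.33. Msi1 1421409_at was lower at day 6 in both arms (-0.66 and -0.82) and the other 2 Msi1 probe sets were higher. Of the 9 genes with more than 1 tested probe set, Smoc2 was the only one with probe sets past 2-fold in opposite directions in both arms. Scaled to the hybridization controls, all 27 probe sets were higher at day 6 in untreated organoids, as were 99.5% of all tested. Opposite directions were thus absent there, but probe sets of a gene stayed apart. Smoc2 1431362_a_at was then 0.67 higher and 1415935_at 4.35. Slc12a2 1417623_at was 1.88 higher, beside 4.96 for 1417622_at and 4.65 for 1448780_at, and Msi1 1421409_at was 0.77 higher. In 4OHT organoids 24 of 27 were then higher, against 91.9% of all, and Smoc2 1431362_a_at lay at -0.06. The 3' minus 5' difference of Actb was 1.24 smaller at day 6 in untreated and 1.56 smaller in 4OHT organoids, and its part in the disagreement between probe sets was not tested.

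**Figure D4:**
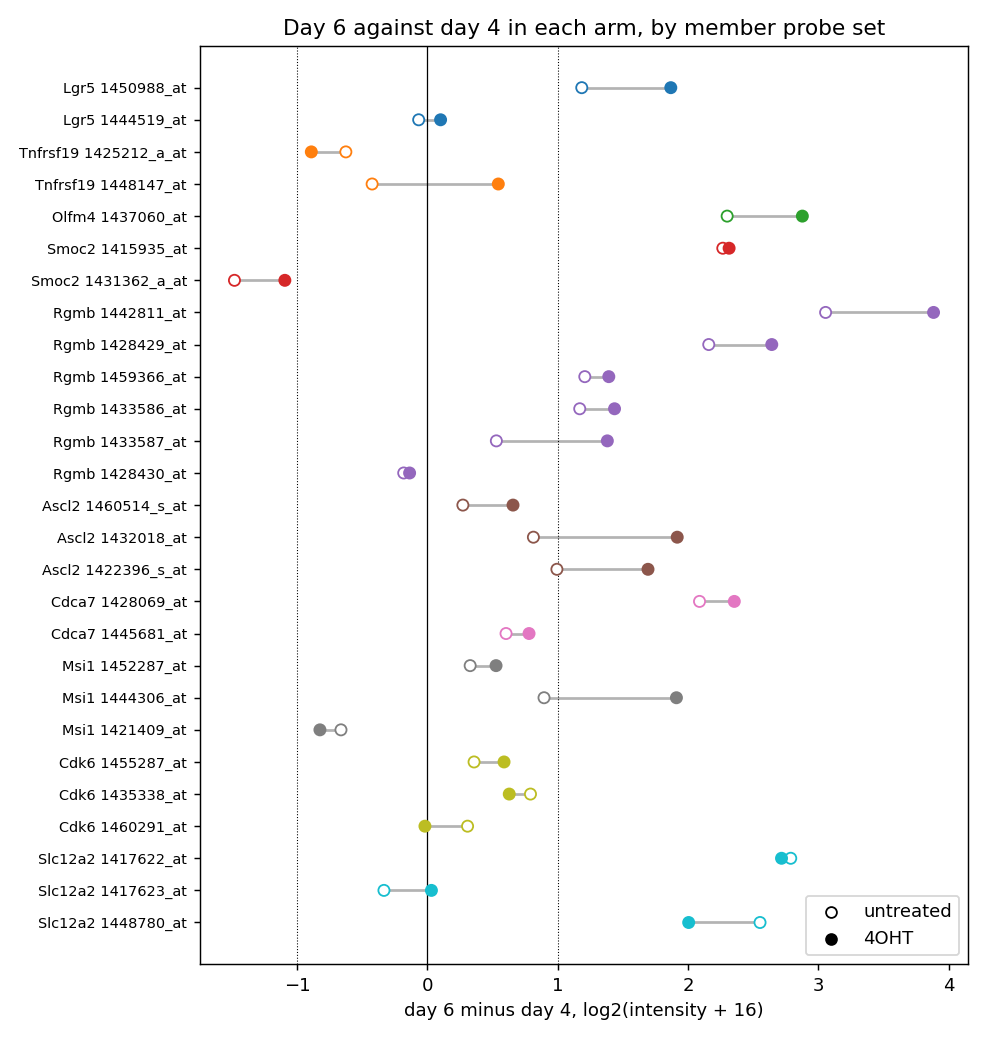
Day 6 minus day 4 on the log2(intensity + 16) scale (horizontal axis) for each of the 27 tested stem cell probe sets, with open circles for untreated and filled circles for 4OHT organoids; dotted lines mark 2-fold. As deposited, the 2 Smoc2 probe sets lie on opposite sides of 0, and Rgmb 1442811_at lies farthest to the right, at 3.06 and 3.88. Under hybridization control scaling both Smoc2 probe sets lie above 0 in untreated organoids (4.35 and 0.67), as do 99.5% of all tested.

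Other genes of the stem cell compartment were each counted by their brightest probe set. Of 22 listed, 19 were measured, 17 were tested, 3 rose, none fell and 14 did not pass. Over all probe sets tested 0.334% rose and 0.981% fell. The list's medians were 0.50 (day 4) and 0.42 (day 6), beside 0.05 and -0.02 over all probe sets tested. Over all probe sets tested the median effect was 0.01, and the share above 0 was not counted. On this list the effect was above 0 for 13 of the 17 and below 0 for Aqp4, Myc, Agr3 and Vdr, the last 3 named after their values were seen. Those that rose by limma's test were Cd44, a hyaluronan receptor (1.40 ± 0.20, adjusted p = 0.0075), Rnf43, a ligase that clears Wnt receptors from the surface (1.08 ± 0.20, adjusted p = 0.025), and the sodium channel subunit gene Scn2b (1.01 ± 0.20, adjusted p = 0.035). The Wnt feedback gene Axin2 had intensities of 89.5 and 163 at day 4 and of 332 and 628 at day 6, an effect of 0.82 ± 0.20 (adjusted p = 0.085). Sox9, a crypt transcription factor, differed by 0.52 ± 0.20 (adjusted p = 0.33) and Prom1, a membrane glycoprotein, by 0.38 ± 0.21 (adjusted p = 0.52). Aqp4, a water channel, was lower with 4OHT on both days, from 150 to 64.04 and from 519 to 361 (-0.78 ± 0.22, adjusted p = 0.14). Slc14a1 and Fstl1 lay under the level filter, and Ephb2, Soat1 and Nr2e3 are not analysed here.

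Markers of other cell types moved on the same arrays, where 0.334% of all probe sets tested rose and 0.981% fell. The summed intensity of 5 Paneth cell markers was 28964 in untreated and 46532 in 4OHT organoids at day 4, and 12502 and 43260.4 at day 6, and 3 of the 5 rose by limma's test and none fell. For 7 enterocyte markers the sums were 3834 and 1387 at day 4 and 10931 and 5467 at day 6, and 5 of the 7 fell and none rose. Of 6 goblet cell markers 1 rose and 1 fell (sums of 6116 and 9999.5, then 5707 and 7979). Most of each sum was Tff3 (4783 and 8821.5, then 4106 and 6657). Muc2, Tff3 and Spdef were higher with 4OHT on both days, and Fcgbp, Zg16 and Clca1 were lower on both. None of 6 enteroendocrine (433 and 523, then 595 and 593) or 4 tuft cell markers (183 and 143, then 235 and 168) passed. The part of these shifts in the stem cell differences was not tested.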

How the data were processed

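Gene expression was measured on 4 Affymetrix arrays, 1 each for untreated and 4OHT-treated Apc fl/fl organoids at day 4 and day 6. Per the labels' protocols, 100 ng of RNA per sample went into a 3' labelling kit that gives biotinylated copy RNA. The deposited intensity values are linear, 1 per probe set and array, from 2.73 to 23910.3; their background correction, normalization and summarisation are not given in the sources used here.

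Of 45101 probe sets, 34945 name 1 gene. Those with several genes (932), not listed (9160) or controls (64) were left out. All 10 genes matched RefSeq by gene identifier. Values were analysed as log2(intensity + 16). A probe set was tested where its highest intensity reached 20.9, as 23044 did. Limma 3.58.1 (R 4.3.3) was fitted to these with 4OHT and day as additive terms and Benjamini-Hochberg adjustment over all of them (threshold 0.05, 1 residual and 10.5 prior degrees of freedom). "Rose" and "fell" of the 4OHT effect mean passing it. Single contrasts were described at 2-fold on that scale without a p-value, and folds are ratios of intensity + 16 unless stated otherwise. The fit was tested on simulated data. Alternatives changed the filter, probe sets, pseudocount, scaling, threshold, day term and arrays. Plots used Python 3.11.15 and matplotlib 3.10.9.

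Named genes were every probe set of the 10 members, fixed genes of 2 stem cell lists, and members of those lists that passed. The members and lists were chosen with earlier results of these data known.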

Additional observations from a re-analysis of the deposited data

Results flagged for a closer look

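For 8 of the 27 tested probe sets a difference had opposite signs in the 2 groups it was measured in. Each group is 1 array against 1, so the difference between the groups was not tested, and a sign near 0 carries little weight. The 4OHT difference at day 6 minus that at day 4 was 0.83 for Rgmb 1442811_at (-0.00077 at day 4, 0.83 at day 6), 0.85 for Rgmb 1433587_at (-0.05 and 0.80), 1.10 for Ascl2 1432018_at (-0.09 and 1.01) and 0.70 for Ascl2 1422396_s_at (-0.10 and 0.60). It was -0.33 for Cdk6 1460291_at (0.17 and -0.15), whose day difference also had opposite signs in the arms (0.31 untreated, -0.02 with 4OHT). The day difference with 4OHT minus that in untreated organoids was 0.97 for Tnfrsf19 1448147_at (-0.42 untreated, 0.54 with 4OHT), 0.36 for Slc12a2 1417623_at (-0.33 and 0.03) and 0.17 for Lgr5 1444519_at (-0.07 and 0.10).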

How the results depend on the processing

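The day term of the main test sets 4OHT against untreated within each day, and the fit with no day term is the unpaired one. No analysis paired by replicate number was run, since the labels give no such numbers. Among 27 tested stem cell probe sets, 0 rose and 0 fell by limma's test. The count that rose was 1 of 19 with the level filter at the 75th percentile (113 of 13128 over all probe sets) and 1 after median centring (114 of 23044). It was 2 of 10 with 1 probe set per gene (140 of 13198) and 4 after quantile normalization (186 of 23044). It was 0 without a level filter, with one on the mean, pseudocounts of 1 and 64, no day term, no _x_at or _s_at probe sets and hybridization control scaling. None fell under any of these. Over all probe sets the test called 303, and 0 to 599 under the alternatives.

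At 2-fold with 4OHT at day 4, 0 probe sets were higher, but 1 after quantile normalization (1.38% of all), 2 with a pseudocount of 1 (3.49%), 5 at 1.5-fold (7.22%) and 2 under hybridization control scaling (2.04%). At day 6, 3 were higher, but 6 with a pseudocount of 1 (1.25% of all), 17 at 1.5-fold (3.76%), and 0 with a pseudocount of 64 (0.286%), at 3-fold (0.126%) or under hybridization control scaling (0.135%). From day 4 to day 6 in untreated organoids, 10 were higher, but 23 under hybridization control scaling, where 78.5% of all were. There 1 was lower, but 3 with a pseudocount of 1 (13.0% of all) or at 1.5-fold (16.2%), and 0 at 3-fold (0.963%) or under hybridization control scaling (0.013%). With 4OHT, 1 was lower over time, but 2 after quantile normalization (6.71% of all), 3 with a pseudocount of 1 (8.93%) or at 1.5-fold (13.0%), and 0 after median centring (1.65%), with a pseudocount of 64 (0.768%), at 3-fold (0.286%) or under hybridization control scaling (0.0651%). With the level filter on the mean all 27 were tested, and 22 were higher with 4OHT on both days (30.2% of all), 7 had both 4OHT arrays above both untreated ones (8.91%) and 16 both day 6 arrays above both day 4 ones (48.9%).

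Under hybridization control scaling the 4OHT effect turned to -0.0032 for Ascl2 1422396_s_at, -0.11 for Cdca7 1428069_at, -0.061 for Cdca7 1445681_at and -0.26 for Cdk6 1460291_at, and the day difference of Smoc2 1431362_a_at in untreated organoids turned to 0.67. Counting differences of any size, 7 of 27 day differences turned in untreated and 2 in 4OHT organoids, all upward; the cause is a constant shift of each array. Leaving out 1 array gives unequal days per arm with no day term, so day differences enter these values. They ran from -0.30 to 1.56 for Lgr5 1450988_at, -1.14 to 1.74 for Olfm4 1437060_at, -0.32 to 1.996 for Smoc2 1415935_at, -0.25 to 1.23 for Smoc2 1431362_a_at, -1.53 to 2.36 for Rgmb 1442811_at, -0.95 to 1.69 for Rgmb 1428429_at, -0.22 to 1.17 for Rgmb 1459366_at, -0.033 to 1.40 for Rgmb 1433586_at, -0.31 to 1.07 for Rgmb 1433587_at, -0.50 to 1.42 for Ascl2 1432018_at, -0.60 to 1.09 for Ascl2 1422396_s_at, -1.02 to 1.34 for Cdca7 1428069_at, -0.19 to 0.59 for Cdca7 1445681_at, -0.24 to 1.67 for Msi1 1444306_at, -0.19 to 0.63 for Msi1 1421409_at, -0.14 to 0.17 for Cdk6 1460291_at, -1.04 to 1.75 for Slc12a2 1417622_at and -0.90 to 1.66 for Slc12a2 1448780_at. Other alternatives turned no effect of a single probe set, and 8 of 378 passed the test where the main value did not.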

Other observations

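A list of genes linked to reserve stem cells was kept apart from the crypt base columnar genes. It holds genes of +4 cells, a slowly dividing crypt population, and also Clu, which is not taken here as a marker of them. Of 6 measured, all tested by their brightest probe set, only Clu rose (2.11 ± 0.21, limma adjusted p = 0.0017) and none fell. Over all probe sets tested 0.334% rose and 0.981% fell. The list's medians were 0.38 (day 4) and 0.47 (day 6), beside 0.05 and -0.02 over all. Clu encodes the secreted chaperone clusterin, and its intensities were 1093 and 4132 at day 4 and 217 and 1153 at day 6, untreated and 4OHT in turn. The RNA-binding protein gene Mex3a gave 137 and 185 at day 4, and 29.6 and 68.8 at day 6 (0.65 ± 0.21, adjusted p = 0.23). Lrig1, an inhibitor of growth factor receptors that the other stem cell list holds too, gave 47.9 and 91.6, then 619 and 873 (0.62 ± 0.20, adjusted p = 0.22). The polycomb gene Bmi1 (0.09 ± 0.21) and the homeodomain gene Hopx (effect 0.00 on the scale to 2 decimals) differed less. Clu was known from earlier results of these data to be higher with 4OHT, so its inclusion is not separate support.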
